A study of Homo sapiens with 6 samples.

Results

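The genes described here are 51 genes of mitosis and the spindle, taken as a list of symbols from the 62438 genes in the count table: cyclins and kinases of the G2/M transition, and genes of the kinetochore, the spindle, condensin and cytokinesis. All 51 passed the filter on low counts. RNA was sequenced from human cells labelled MDA-MB-453, a breast cancer line, 48 h after transfection with a 10 nM dose of siRNA. The si-N6AMT1 group (3 libraries) had received an siRNA against N6AMT1, a methyltransferase studied as a writer of adenine N6 methylation in DNA. The si-CN group (3 libraries) had received a scrambled siRNA, and both groups had the same transfection reagent and medium. The question was how expression changed when N6AMT1 was silenced. The sources describe triplicate cells and do not say that these were separate cultures, so the p-values below measure the spread between these libraries, which may be technical.

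Mitosis separates duplicated chromosomes into a pair of daughter cells. CDK1 bound to cyclin B drives entry, the spindle captures chromosomes at their kinetochores, the checkpoint delays anaphase until all are attached, and cytokinesis then divides the cell. The mRNAs of most of these genes rise from S phase to G2 and M, and the DREAM and MYBL2-FOXM1 complexes act on their promoters through a short element, the cell cycle genes homology region (CHR). In a growing culture the level of such an mRNA therefore follows both the share of cells in G2 and M and the amount of mRNA per cell, and fewer cells of a phase and less RNA per cell cannot be told apart in these bulk samples.

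The CHR is shown in the promoters of 8 of the genes because most of the promoters matched hold it near their start. RefSeq promoter windows, from 250 bases before to 50 after the transcription start on GRCh38.p14, were matched for 44 of the 51 genes. TPX2, FOXM1, RACGAP1, BUB3, TTK, BIRC5 and AURKA had no entry. Each line gives 30 bases around the element, 5′ to 3′ on the strand of the gene, and capitals mark the CHR (TTTGAA or TTCGAA, searched on both strands, so TTCAAA is TTTGAA read from the other strand). The first 5 genes were downregulated in si-N6AMT1 libraries, and the last 3 did not pass the test.
SMC2 (chr9:104094294-104094323, plus strand): ctcgcgccgaaaTTCAAAggaataaatagt
PRC1 (chr15:90994538-90994567, minus strand): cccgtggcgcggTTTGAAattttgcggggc
DLGAP5 (chr14:55191565-55191594, minus strand): cggtgcggcaagTTTGAAtttcgtggaggc
MKI67 (chr10:128126435-128126464, minus strand): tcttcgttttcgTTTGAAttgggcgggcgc
ESPL1 (chr12:53268256-53268285, plus strand): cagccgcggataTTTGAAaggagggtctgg
CCNB2 (chr15:59105105-59105134, plus strand): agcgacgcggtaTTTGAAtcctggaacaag
PLK1 (chr16:23678848-23678877, plus strand): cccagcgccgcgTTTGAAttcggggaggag
SPC25 (chr2:168890416-168890445, minus strand): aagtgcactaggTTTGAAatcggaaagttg

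A CHR lay within 50 bases of the start in 26 of the 44 windows (59.1%), against 340 of 10668 windows of all tested protein-coding genes (3.19%). Anywhere in the window it was found in 72.7% of the genes and in 11.3% of all windows. At least 1 CCAAT, the motif bound by NF-Y, on either strand, was in 68.2% and 36.8% of windows, respectively, and a CHR near the start together with a CCAAT was in 40.9% and 1.56%. The end of a CHR and of a reversed CCAAT can share letters, and such cases were counted for both. These shares describe the promoters and were not used to choose the genes.

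**Figure D1:**
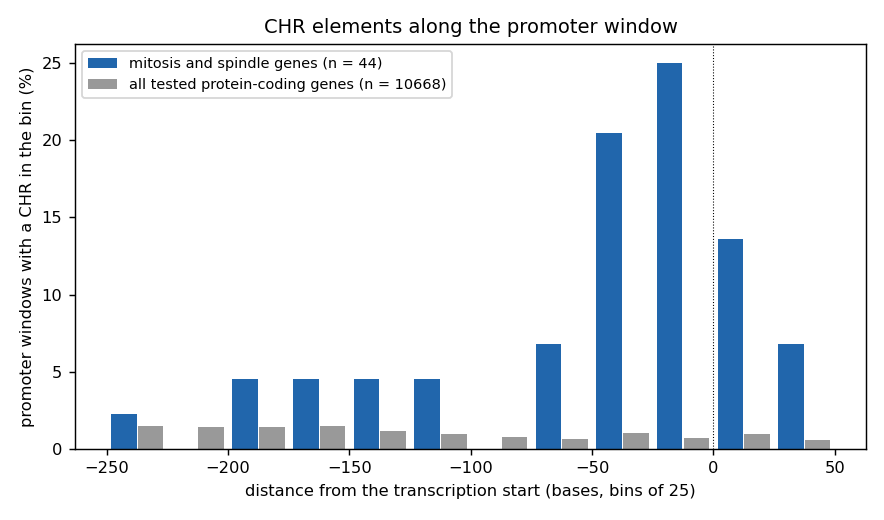
Percent of promoter windows with a CHR in each bin of 25 bases (y axis) against distance from the transcription start in bases (x axis), for 44 mitosis and spindle genes (blue) and 10668 tested protein-coding genes (grey). In the 25 bases before the start, 25% of the mitosis and spindle windows and 0.722% of all windows held the element.

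Library totals were 19739247 to 21289740 estimated counts, and values below are CPM, counts scaled to the size of each library, after TMM normalization. N6AMT1 itself (ENSG00000156239, GRCh37 chr21:30244513-30257693, minus strand) was at 3.08, 3.53 and 2.93 CPM in si-N6AMT1 libraries and at 6.93, 6.86 and 6.65 CPM in si-CN libraries (log2 fold change -1.10, SE 0.119, FDR = 3.65e-07). FDR is the Benjamini-Hochberg adjusted p of edgeR's quasi-likelihood test over 17320 genes. The markers of the labelled line, a luminal one, were only partly present, and some went against the label. KRT8, KRT18, EPCAM and ERBB2 were detected, with 53.7 CPM for ERBB2 in si-CN libraries. The luminal factor SPDEF had at most 6 counts in any library and the luminal keratin KRT19 at most 14, while FOXA1 was at 8.42 CPM. The basal keratin KRT5 was at 768.2 CPM and KRT14 at 110.6 CPM in si-CN libraries, though both were listed as low or absent in this line. The hormone receptor ESR1, listed in the same way, was at 0.317 CPM. KRT5, KRT14, KRT8 and KRT18 were upregulated in si-N6AMT1 libraries (KRT5 to 829 CPM) and EPCAM was downregulated (291 from 316 CPM), and their part in the results below was not tested. The cells are therefore called here only by their label. PTPRC and CD3E, of blood cells, had at most 3 counts in any library, and COL1A1, of fibroblasts, was at 45.9 CPM in si-N6AMT1 and 45.8 CPM in si-CN libraries.

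Most of the mitosis and spindle genes were slightly lower after N6AMT1 knockdown. Of 51 genes, 29 (56.9%) were downregulated at an FDR under 0.05, CDC25B was upregulated, and 21 did not pass the test. Of all genes tested, 11.5% were downregulated and 9.78% upregulated, 21.3% in either direction. Among the 10386 genes whose average level lay within the range of the 51 genes (8.02 to 522 CPM), 17.6% were downregulated and 13.8% upregulated. For the 51 genes the log2 fold change had a median of -0.10, with quartiles of -0.17 and -0.02 and a range of -0.34 to 0.23, and the median of all genes tested was 0.0039. The fold change was below 0 for 42 of the 51 genes. In 33 of the 51 genes (64.7%) every si-N6AMT1 library lay below every si-CN library, against 18.0% of all genes, and in 2 of the 51 every si-N6AMT1 library lay above, against 16.8% of all genes. Together the 51 genes took 0.561%, 0.558% and 0.557% of the counts of the si-N6AMT1 libraries and 0.591%, 0.592% and 0.594% of the si-CN libraries. The changes were therefore small: the largest called fall was 20.8% and the called rise was 13.1%. With each library left out in turn, 23 to 26 of the genes were downregulated, against 8.68% to 10.2% of all genes. DESeq2 called 19 downregulated, all of which edgeR also called, against 10.1% of the 11277 genes to which it gave an adjusted p. The calls lost with DESeq2 were those of CDC20, BUB1, BUB1B, CENPE, NUF2, SKA1, KIF11, KIF4A, HMMR and NCAPD2.

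**Figure D2:**
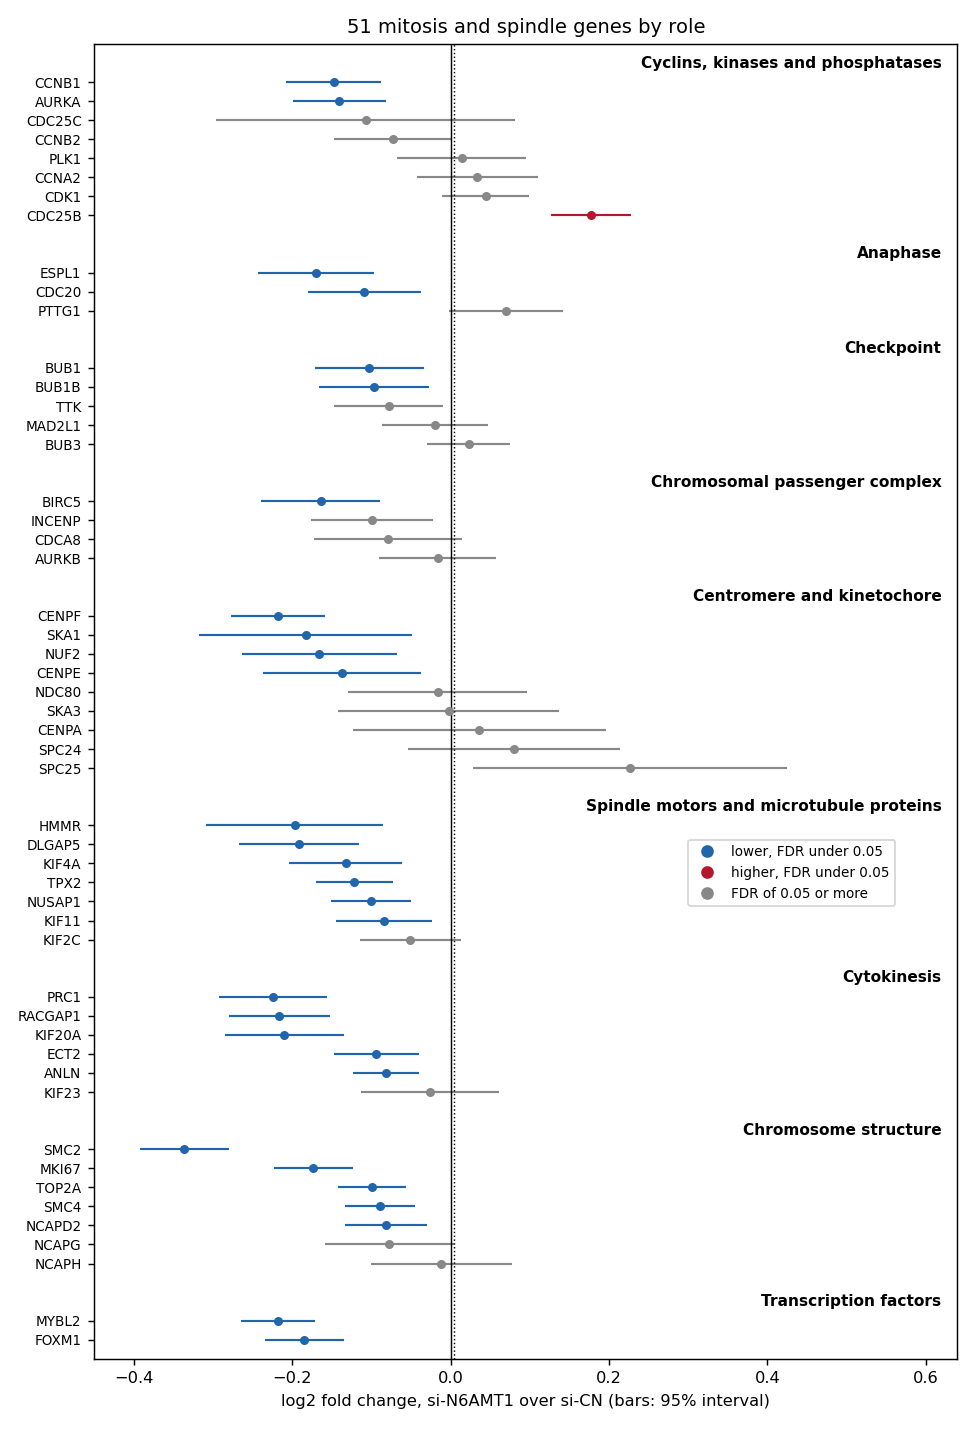
log2 fold change of si-N6AMT1 over si-CN (x axis) for each of the 51 genes (y axis, grouped by role), with bars for the 95% interval of the edgeR fit; blue and red points passed an FDR of 0.05 and the dotted line marks the median of all genes tested. Values run from -0.34 for SMC2 to 0.23 for SPC25, and 29 points are blue and 1, CDC25B, is red.

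Levels per transcript length were estimated as TPM, to compare genes with each other. In si-CN libraries TPX2 was highest with 262 ± 3.75 TPM (SD, n = 3), followed by ANLN (252 ± 3.00 TPM) and PTTG1 (251 ± 9.03 TPM), whose order is within their spread. The lowest were CENPE and SPC25 (both 12.1 TPM) and CDC25C (10.2 TPM). Genes at the low end, such as SPC25 and CDC25C, had the widest intervals of the fold change.

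Of the 8 cyclins, kinases and phosphatases of mitotic entry, 2 were downregulated, 1 was upregulated and 5 did not pass the test. CDC25B (ENSG00000101224, GRCh37 chr20:3767419-3786768, plus strand), the phosphatase that begins activation of CDK1 in G2, was at 243, 239.5 and 237 CPM in si-N6AMT1 libraries and at 209.5, 209 and 218 CPM in si-CN libraries. All si-N6AMT1 values were above all si-CN values (log2 fold change 0.18, SE 0.0242, FDR = 9.05e-06). CCNB1, cyclin B1, moved the other way, with 87.4, 88.5 and 88.7 CPM against 99.0, 95.9 and 98.3 CPM (log2 fold change -0.15, SE 0.0290, FDR = 0.000613). AURKA, the kinase of spindle poles, was at 94.1, 95.7 and 96.4 CPM against 103, 106 and 106 CPM (log2 fold change -0.14, SE 0.0286, FDR = 0.000877). The groups did not overlap for either gene. PLK1, the polo kinase, was at 46.8, 48.7 and 45.9 CPM against 46.9, 45.7 and 47.5 CPM, which overlap, and its 95% interval was -0.07 to 0.10 (FDR = 0.857). CDK1, the kinase itself, had a log2 fold change of 0.04 (FDR = 0.271), CCNA2, cyclin A2, of 0.03 (FDR = 0.58), CCNB2, cyclin B2, of -0.07 (FDR = 0.168) and CDC25C, a further CDK1 phosphatase, of -0.11 (FDR = 0.462, 95% interval -0.30 to 0.08). With a correction for GC content CDK1 was called higher (log2 fold change 0.09, FDR = 0.0115). Here and below, unless a block is named, this correction is a fit with no block for replicate number. That fit was an addition chosen after seeing the data. The partners CDK1 and CCNB1 thus had fold changes of opposite sign, of which that of CCNB1 passed the test; whether the pair differ from each other was not tested.

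Of the 3 genes of anaphase, ESPL1 and CDC20 were downregulated. ESPL1, separase, the protease that cuts cohesin, was at 53.5, 51.7 and 52.7 CPM in si-N6AMT1 libraries and at 59.1, 59.8 and 58.8 CPM in si-CN libraries, with no overlap (log2 fold change -0.17, SE 0.0352, FDR = 0.00105). CDC20, the activator of the anaphase-promoting complex, was at 91.2, 83.6 and 89.6 CPM against 97.8, 92.1 and 95.2 CPM (log2 fold change -0.11, SE 0.0343, FDR = 0.0255). Its groups were separated by a narrow gap, and the call was lost without si-N6AMT1 replicate 2 (FDR = 0.186), si-CN replicate 1 (FDR = 0.109) or si-CN replicate 3 (FDR = 0.0767). PTTG1, securin, the inhibitor of separase, was at 82.9, 86.6 and 84.0 CPM against 85.0, 77.8 and 79.0 CPM. These values overlap (log2 fold change 0.07, SE 0.0348, FDR = 0.173), and without si-CN replicate 1 PTTG1 was called higher (log2 fold change 0.11, FDR = 0.0328).

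Of the 5 spindle checkpoint genes, BUB1 and BUB1B were downregulated. BUB1 was at 82.1, 81.1 and 83.1 CPM against 86.8, 85.3 and 92.1 CPM in si-CN libraries (log2 fold change -0.10, SE 0.0329, FDR = 0.0291). BUB1B, which encodes BubR1, was at 71.3, 69.1 and 69.8 CPM against 74.7, 72.8 and 77.1 CPM (log2 fold change -0.10, SE 0.0333, FDR = 0.0411). Neither gene's groups overlapped, but both calls were near the threshold. BUB1 lost its call without si-N6AMT1 replicate 1 (FDR = 0.0635), si-N6AMT1 replicate 2 (FDR = 0.105) or si-CN replicate 3 (FDR = 0.226). BUB1B lost it without si-N6AMT1 replicate 2 (FDR = 0.140), si-N6AMT1 replicate 3 (FDR = 0.109), si-CN replicate 1 (FDR = 0.0735) or si-CN replicate 3 (FDR = 0.212). MAD2L1, the checkpoint protein that binds CDC20, was at 74.3, 78.1 and 78.6 CPM against 78.2, 77.5 and 78.5 CPM, which overlap (95% interval -0.09 to 0.05, FDR = 0.735). With a correction for GC content BUB1 (FDR = 0.132) and BUB1B (FDR = 0.132) both lost their calls. PAK6, on the same strand, overlaps BUB1B and had 215 to 248 counts, so the counts of BUB1B may be less certain. TTK, the kinase upstream of BUB1, had a log2 fold change of -0.08 (FDR = 0.104) with groups that did not overlap. BUB3, the partner of BUB1 and BubR1, had a log2 fold change of 0.02 (FDR = 0.594).

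Of the 4 subunits of the chromosomal passenger complex, BIRC5 was downregulated. BIRC5, survivin, was at 70.7, 73.4 and 66.6 CPM in si-N6AMT1 libraries and at 80.8, 77.0 and 78.3 CPM in si-CN libraries, with no overlap (log2 fold change -0.16, SE 0.0363, FDR = 0.00191). AURKB, the kinase of the complex, was at 72.5, 73.5 and 73.5 CPM against 70.3, 73.9 and 77.5 CPM, and the si-N6AMT1 values lay inside the si-CN range (95% interval -0.09 to 0.06, FDR = 0.808). INCENP, the scaffold, had a log2 fold change of -0.10 (FDR = 0.0624) and CDCA8, borealin, of -0.08 (FDR = 0.242). INCENP was called lower without si-N6AMT1 replicate 1 (FDR = 0.0206) or si-CN replicate 1 (FDR = 0.0233), and with a correction for GC content (FDR = 0.0101).

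The centromere and kinetochore genes were mixed in sign, with log2 fold changes of -0.22 to 0.23. Of 9 genes, 4 were downregulated and 5 did not pass the test. CENPF, a large kinetochore protein of G2 and M, was at 136, 128 and 129 CPM in si-N6AMT1 libraries and at 149, 155 and 152 CPM in si-CN libraries, with no overlap (log2 fold change -0.22, SE 0.0286, FDR = 5.44e-06). NUF2, of the NDC80 complex that binds microtubules, was at 42.3, 40.9 and 37.5 CPM against 46.7, 46.0 and 42.9 CPM (log2 fold change -0.17, SE 0.0471, FDR = 0.0133). CENPE, the kinesin of the kinetochore, was at 44.2, 38.3 and 44.03 CPM against 47.1, 47.0 and 45.1 CPM (log2 fold change -0.14, SE 0.0482, FDR = 0.0462). For both genes the groups lay next to each other without overlap. SKA3, of the SKA complex that keeps kinetochores on microtubule ends, was at 16.4, 17.9 and 15.8 CPM against 16.4, 17.3 and 16.5 CPM, which overlap throughout (95% interval -0.14 to 0.14, FDR = 0.988). SKA1, of the same complex, had a log2 fold change of -0.18 (FDR = 0.0466).

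Some kinetochore calls depended on 1 library. NUF2 lost its call without si-N6AMT1 replicate 3 (FDR = 0.112), si-CN replicate 1 (FDR = 0.0568) or si-CN replicate 2 (FDR = 0.0524). CENPE lost it without si-N6AMT1 replicate 2 (FDR = 0.326), si-CN replicate 1 (FDR = 0.114), si-CN replicate 2 (FDR = 0.123) or si-CN replicate 3 (FDR = 0.0558). SKA1 kept its call only without si-CN replicate 3, and its FDR was 0.0649 without si-N6AMT1 replicate 1, 0.120 without si-N6AMT1 replicate 2, 0.115 without si-N6AMT1 replicate 3, 0.190 without si-CN replicate 1 and 0.0766 without si-CN replicate 2. SPC25, also of the NDC80 complex, had the highest log2 fold change of the 51 genes, 0.23 (95% interval 0.03 to 0.43), and did not pass the test (FDR = 0.102). Its libraries were at 8.22, 9.35 and 8.05 CPM against 7.49, 6.86 and 7.54 CPM, every si-N6AMT1 value above every si-CN value. The other two subunits, NDC80 (log2 fold change -0.02, FDR = 0.881) and SPC24 (0.08, FDR = 0.434), and CENPA, the centromeric histone (0.04, FDR = 0.802), had groups that overlapped. SLC35F6, on the same strand, overlaps CENPA and had 635 to 721 counts, so the counts of CENPA may be less certain. With a correction for GC content, NUF2 (FDR = 0.0607), CENPE (log2 fold change -0.09, FDR = 0.227) and SKA1 (FDR = 0.0861) lost their calls. NUF2 kept its call with the replicate block and GC correction together. Among the 4 subunits of the NDC80 complex, only NUF2 was thus called in the fit to all 6 libraries.

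Of the 7 spindle motors and microtubule proteins, 6 were downregulated, and all 7 fold changes were below 0. DLGAP5, also called HURP, a stabilizer of kinetochore fibres, was at 53.6, 52.3 and 54.0 CPM in si-N6AMT1 libraries and at 59.1, 60.6 and 62.7 CPM in si-CN libraries (log2 fold change -0.19, SE 0.0365, FDR = 0.000475). TPX2, the activator of AURKA on the spindle, was at 380.1, 369 and 380.4 CPM against 421, 407 and 400.4 CPM (log2 fold change -0.12, SE 0.0234, FDR = 0.000495). NUSAP1, which binds and bundles spindle microtubules, was at 165, 169 and 164 CPM against 178, 178 and 177 CPM (log2 fold change -0.10, SE 0.0242, FDR = 0.00398). In each of these the highest si-N6AMT1 library was below the lowest si-CN library. KIF2C, the kinesin that takes microtubules apart at centromeres, was at 83.8, 88.1 and 87.1 CPM against 90.9, 87.7 and 89.8 CPM, which overlap (log2 fold change -0.05, FDR = 0.278). HMMR, which acts at spindle poles, had a log2 fold change of -0.20 (FDR = 0.0105), KIF4A, the chromosome-bound kinesin, of -0.13 (FDR = 0.00705) and KIF11, the kinesin that pushes spindle poles apart, of -0.08 (FDR = 0.0438). KIF4A lost its call without si-N6AMT1 replicate 1 (FDR = 0.0534) and HMMR without si-CN replicate 1 (FDR = 0.0675). KIF11 kept its call only without si-CN replicate 2, and its FDR was 0.0750 without si-N6AMT1 replicate 1, 0.114 without si-N6AMT1 replicate 2, 0.103 without si-N6AMT1 replicate 3, 0.176 without si-CN replicate 1 and 0.0994 without si-CN replicate 3. It also lost its call with a correction for GC content (log2 fold change -0.05, FDR = 0.299). With the replicate block and GC correction together, NUSAP1 (FDR = 0.0800) and HMMR (FDR = 0.0653) lost their calls as well. OIP5-AS1, on the same strand, overlaps NUSAP1 and had 1917 to 2326 counts, so the counts of NUSAP1 may be less certain.

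Of the 6 cytokinesis genes, 5 were downregulated, and 3 of these fell by 13.5% to 14.4%. RACGAP1, the GTPase activator of centralspindlin, was at 80.9, 81.3 and 79.6 CPM in si-N6AMT1 libraries and at 94.5, 90.8 and 95.4 CPM in si-CN libraries (log2 fold change -0.22, SE 0.0307, FDR = 1.49e-05). PRC1, which bundles the microtubules of the central spindle and whose CHR is printed above, was at 77.4, 78.6 and 74.5 CPM against 88.2, 92.7 and 88.4 CPM (log2 fold change -0.22, SE 0.0327, FDR = 2.12e-05). KIF20A, a kinesin of the central spindle, was at 51.7, 54.6 and 54.7 CPM against 62.8, 61.3 and 62.1 CPM (log2 fold change -0.21, SE 0.0361, FDR = 0.000152). For all of these the groups lay well apart. A gene on the same strand, ENSG00000284946, overlaps PRC1 and had 620 to 708 counts, so the counts of PRC1 may be less certain. KIF23, the kinesin partner of RACGAP1 in centralspindlin, was at 66.7, 67.6 and 63.2 CPM against 69.2, 70.0 and 62.1 CPM, with the si-N6AMT1 values inside the si-CN range (95% interval -0.11 to 0.06, FDR = 0.727). ECT2, the RhoA activator of the division plane, had a log2 fold change of -0.09 (FDR = 0.0107) and ANLN, anillin, of -0.08 (FDR = 0.00484). ECT2 lost its call without si-CN replicate 2 (FDR = 0.0873) or si-CN replicate 3 (FDR = 0.0527). With a correction for GC content, ECT2 (log2 fold change -0.05, FDR = 0.229) and ANLN (-0.04, FDR = 0.120) both lost their calls.

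Of the 7 genes of chromosome structure, 5 were downregulated and all 7 fold changes were below 0. SMC2 (ENSG00000136824, GRCh37 chr9:106856541-106903700, plus strand), the core ATPase of both condensins, was at 99.7, 98.6 and 101 CPM in si-N6AMT1 libraries and at 128, 125 and 125 CPM in si-CN libraries, the largest fall of the 51 genes (log2 fold change -0.34, SE 0.0270, FDR = 3.51e-09). Its partner ATPase SMC4 was at 362, 364 and 364 CPM against 391, 382 and 387 CPM (log2 fold change -0.09, SE 0.0211, FDR = 0.00355). The intervals of these partners, -0.39 to -0.28 for SMC2 and -0.13 to -0.05 for SMC4, do not overlap. MKI67, the Ki-67 protein that coats mitotic chromosomes, was at 218, 216 and 211 CPM against 237, 244 and 246 CPM (log2 fold change -0.17, SE 0.0242, FDR = 1.21e-05). TOP2A, topoisomerase II alpha, was at 373, 369 and 371 CPM against 397, 396 and 399.7 CPM (log2 fold change -0.10, SE 0.0208, FDR = 0.0012). The groups of these 4 genes did not overlap. NCAPH, the kleisin subunit of condensin I, was at 38.4, 40.3 and 39.2 CPM against 40.8, 40.0 and 38.1 CPM, which overlap (95% interval -0.10 to 0.08, FDR = 0.894). NCAPD2, also of condensin I, had a log2 fold change of -0.08 (FDR = 0.0216) and NCAPG of -0.08 (FDR = 0.18). NCAPD2 lost its call without si-N6AMT1 replicate 3 (FDR = 0.0952) or si-CN replicate 2 (FDR = 0.106). With a correction for GC content, SMC4 lost its call (log2 fold change -0.04, FDR = 0.154). TOP2A lost its call with the replicate block and GC correction together (FDR = 0.110). Of the 5 condensin I genes, 3 were downregulated in the fit with no correction.

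Both transcription factors of the list were downregulated. MYBL2 (ENSG00000101057, GRCh37 chr20:42295659-42345135, plus strand), B-Myb, the activator that joins the MuvB core in S phase, was at 229.9, 235 and 229.7 CPM in si-N6AMT1 libraries and at 271, 270.2 and 267 CPM in si-CN libraries (log2 fold change -0.22, SE 0.0226, FDR = 1.93e-07). FOXM1, the forkhead factor of G2 genes, was at 176, 176 and 173 CPM against 196, 198 and 202 CPM (log2 fold change -0.18, SE 0.0241, FDR = 4.81e-06). Neither gene's groups overlapped, and both were called in each of the 14 alternative analyses. FOXM1 lies across from RHNO1 on the opposite strand, which had 1115 to 1300 counts, and the strand option of the authors' counting is not given in the sources used here.

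The CHR was present in genes that were called and in genes that were not. Of the 26 genes with a CHR within 50 bases of the start, 16 were downregulated and 0 upregulated, and their median log2 fold change was -0.10. Of the 18 with a window and no such CHR, 8 were downregulated and 1 upregulated, with a median of -0.07. SMC2 and PRC1, with the largest falls, and PLK1 and SPC25, above 0, all hold the element in the sequences printed above. Across all 340 tested protein-coding genes with a CHR near the start, 17.9% were downregulated and 10% upregulated. Among the 284 of these that stand in none of the lists used here, 12.3% were downregulated and 11.6% upregulated, with a median of 0.01, while 14.6% of the 10328 genes with no CHR near the start were downregulated. A match is a description of letters and not a measured binding site.

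Other lists were counted for comparison. Of 92 further genes of mitosis, 32 (34.8%) were downregulated and 2 (2.17%) upregulated, and the median of their log2 fold changes was -0.06. The smallest FDRs were those of ARPP19, an inhibitor of the phosphatase PP2A once the kinase MASTL has phosphorylated it (log2 fold change -0.53, FDR = 1.09e-11), SMC1A, of cohesin (-0.34, FDR = 3.84e-10), and NEK2, a kinase of centrosome separation (-0.34, FDR = 1.77e-07). SPDL1, which brings dynein to kinetochores (0.16, FDR = 0.00696), and CCNF, cyclin F (0.16, FDR = 0.0167), were upregulated. Of 52 genes of DNA replication and the G1/S transition, 24 (46.2%) were downregulated and 1 upregulated, with a median of -0.11. CDC6, which loads the replicative helicase (-0.46, FDR = 1.44e-11), UHRF1, of maintenance methylation (-0.34, FDR = 6.97e-08), and RFC5, of the clamp loader (-0.33, FDR = 9.70e-08), had the smallest FDRs, and RFC4, also of the clamp loader, was upregulated (0.14, FDR = 0.0104). The mitosis and spindle genes and the replication genes thus had medians of -0.10 and -0.11, and whether the lists differ was not tested.

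**Figure D3:**
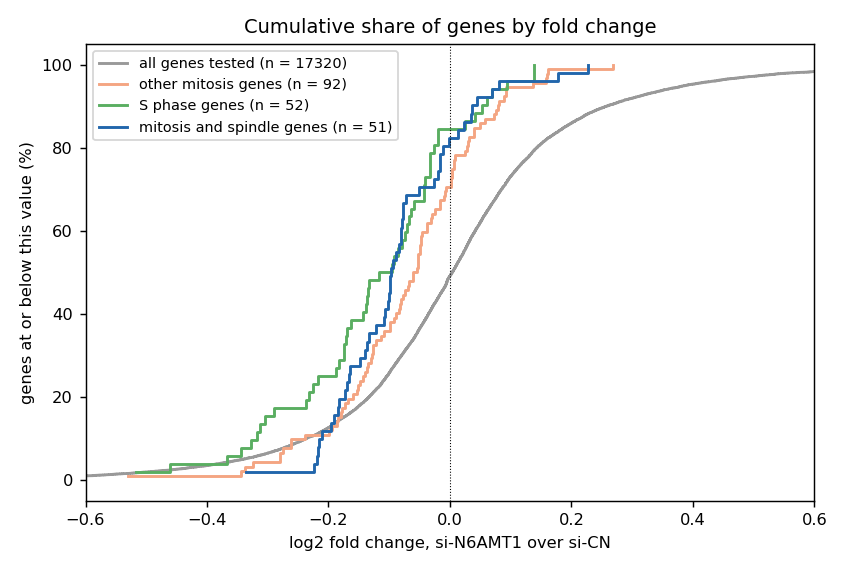
Percent of genes at or below each log2 fold change of si-N6AMT1 over si-CN (y and x axes) for the 51 mitosis and spindle genes (blue), 92 other mitosis genes (orange), 52 S phase genes (green) and 17320 genes tested (grey). The blue curve crosses 50% at -0.10 and the grey curve at 0.0039, and 82.4% of the 51 genes lie below 0.

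Fold changes moved with the GC content of the transcript over all genes, so it is given beside the result. The median GC content was 43.2% for the reference transcripts of the 51 genes (range 35.1% to 60.0%) and 48.1% for all genes tested with a value. The 51 genes were split by GC content into 3 classes of 17, and all genes tested by the same cuts. For all genes the lowest class is open below 35.1% and the highest above 60.0%. At 35.1% to 40.8% GC, 11 of 17 were downregulated, beside 19.2% of the 3613 genes in the lowest class. At 41.0% to 46.6% GC, 9 of 17 were downregulated, beside 14.7% of all genes in that class. At 46.8% to 60.0% GC, 9 of 17 were downregulated, beside 7.28% of the 9529 genes in the highest class. The medians of the 51 genes in these classes were -0.09, -0.10 and -0.10, and those of all genes -0.03, -0.02 and 0.03. With a correction for GC content, 21 of the 51 genes were downregulated and CDC25B and CDK1 upregulated, with a median of -0.07. In that fit 10.6% of all genes tested were downregulated. The calls of BUB1, BUB1B, NUF2, CENPE, SKA1, KIF11, ECT2, ANLN and SMC4 were lost, and INCENP was called lower.

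The fold changes of all genes also moved with a 7-base sequence of the 3′ UTR, TTCACAT or TCACATA, which was picked in earlier work on these same libraries and is given as a description. Of 13161 tested protein-coding genes, 22.5% hold it, and 28.4% of these were downregulated, against 10.4% of those without it. Their median UTR lengths also differed, 3173 bases with the sequence and 987 without it (1690 and 670 among the 51 genes). These shares were not adjusted for length. Among the 51 genes, 9 (17.6%) hold the sequence and none holds the 8 bases that join the pair (4.69% of all genes). RACGAP1, KIF20A and BIRC5, which fell, and SKA3, which did not pass the test, are shown on GENCODE transcripts with the sequence in capitals.
RACGAP1, position 182 of the UTR: ttctcctcaagTCACATAatatcagcactt
KIF20A, position 243 of the UTR: agatattattgTTCACATtttttattgaat
BIRC5, position 919 of the UTR: tcagcccaaccTTCACATctgtcacgttct
SKA3, position 73 of the UTR: cgattttaacaTTCACATtgccctgcctct
Of the 9 genes with the sequence, 5 were downregulated (median log2 fold change -0.09), and of the 42 without it, 24 were downregulated and 1 upregulated (median -0.10). The part of this sequence in the results was not tested.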

How the data were processed

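RNA-seq was read from 3 si-N6AMT1 and 3 si-CN libraries. The authors trimmed paired-end reads, ran kallisto v0.46.0 on transcripts and added up the transcripts of each gene. They deposited estimated counts (expected counts), not normalized, as whole numbers for 62438 genes. Reads that match several transcripts are shared out by an estimate in kallisto. Of the 51 genes, 16 were overlapped on the opposite strand and 5 on the same strand by a gene with at least 10 counts in some library, and of 18 named copies 17 had under 3 counts in every library. Overlap was judged by the whole span of each gene, and shared exons were not looked for.

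Counts were tested in R v4.3.3 with edgeR v4.0.16, a minimum count of 10, TMM and the quasi-likelihood test over 17320 genes (biological coefficient of variation 1.85%). Standard errors were taken as |log2 fold change| over the root of F. Symbols, lengths and GC content came from GENCODE v44 on GRCh37, where 62149 identifiers matched. Library pairs had chi-square values per degree of freedom of 1.35 to 1.69 within groups and 6.07 to 6.86 between groups. The procedure was also run on simulated counts, and that outcome is not used as support for the calls above. Promoters were RefSeq windows on GRCh38.p14, the first listed per gene.

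The members, lists and markers were chosen with earlier results of these data known, and no test over a list was made. In each role, libraries are given for up to 3 called genes with the smallest FDR and for the gene with the highest FDR, and the others by fold change. SMC4 and SPC25 are given by library outside that rule, chosen after their values were seen. All genes called in the less common direction are named, and from the other lists the 3 smallest FDRs and up to 3 such genes.

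Alternatives were RLE size factors, DESeq2 v1.42.0, limma-voom v3.58.1, no filter, an estimated TPM of at least 1, each library left out, and a replicate block, alone or together with a GC content correction. The GC correction without the block was an addition chosen after seeing the data. The 6mA data were not analysed here. A marker gene is not reported here.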

Additional observations from a re-analysis of the deposited data

How the results depend on the processing

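The 29 downregulated genes became 19 with DESeq2, 19 with the replicate block and GC correction, and 23 to 26 with any 1 library left out. Of all genes tested, 9.47% were downregulated with the block and GC correction, and 8.68% to 10.2% with any 1 library left out. With other settings the downregulated genes of the list stayed between 21 and 29, against 5.01% to 11.5% of all genes. Of the 30 called genes, 15 were called in all 14 alternatives and 19 in all 6 with a library left out, and 0 changed sign. Upregulated genes were 1 to 2 with any 1 library left out and 2 with GC correction, with or without the block. The median, -0.0969, ran from -0.1003 to -0.0861 with any 1 library left out and was -0.0716 and -0.0727 with GC correction, with and without the block. Upregulated genes of the other mitosis list were 0 with DESeq2, which called 19 downregulated, 4 with the block and GC correction, 5 with GC correction alone, and 1 to 3 with any 1 library left out. For the S phase list they were 0 with DESeq2, 3 with GC correction alone and 0 to 1 with any 1 library left out. The block and GC correction together ended the calls of BUB1, BUB1B, CENPE, SKA1, KIF11, NUSAP1 (FDR = 0.0800), HMMR (FDR = 0.0653), ANLN, ECT2, SMC4 (FDR = 0.269) and TOP2A (FDR = 0.110), and INCENP was called. Of the 11277 genes to which DESeq2 gave an adjusted p, 1139 (10.1%) were called downregulated and 796 upregulated. The causes of these moves were not tested.

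Genes near 0 changed sign. Under GC correction with and without the block, PLK1 was at -0.0145 and -0.0144, MAD2L1 at 0.0218 and 0.0219, SKA3 at 0.0303 and 0.0319, and KIF23 at 0.0053 and 0.0061, and NCAPH was at 0.0004 without the block. With a library left out, PLK1 ran from -0.0106 to 0.0330, MAD2L1 from -0.0347 to 0.0064, AURKB from -0.0507 to 0.0212, SKA3 from -0.0550 to 0.0385, KIF23 from -0.0796 to 0.0053 and NCAPH from -0.0392 to 0.0103. NDC80 (-0.0440 to 0.0395), CENPA (-0.0342 to 0.0896) and CCNA2 (-0.0088 to 0.0656) also changed sign over the 14 alternatives.

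Same-numbered libraries did not deviate together (correlations of -0.0381, -0.0422 and 0.00997). Counting noise alone can hold such correlations near 0, so they do not decide whether the numbers pair the libraries. The replicate block left 26 downregulated genes and CDC25B upregulated, and 10.4% of all genes tested were downregulated in that fit. BUB1B (FDR = 0.0616), SKA1 (FDR = 0.0566) and KIF11 (FDR = 0.0732) lost their calls with the block. DESeq2 gave no adjusted p for N6AMT1 (log2 fold change -1.10). Depth limits the least abundant genes: SPC25 and CDC25C had intervals of 0.03 to 0.43 and -0.30 to 0.08.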
